A study of Mus musculus with 36 samples.

Results

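Transcript counts were followed for 9 genes of the peroxisome proliferator-activated receptor (PPAR) system: the 3 PPAR receptor genes Ppara, Pparg and Ppard, the coactivator gene Ppargc1a, and the fasting-induced target genes Pdk4, Angptl4, Fgf21, Ucp3 and Acot1. They were chosen by name from textbook knowledge of the pathway, with earlier results of these data known, and looked up by gene identifier. All 9 were among the 51413 genes listed in all 6 count tables of the study. The study fed C57BL/6N wildtype male mice (C57BL/6 in the labels) for 2 weeks, from 6 to 8 weeks of age, on a high-fat diet (HFD, 60% of kcal from fat) or a low-fat diet (LFD, 10% of kcal from fat) and followed RNA in their germ cells, in embryos and in sons. Sperm taken by swim-up from the cauda epididymis (3 HFD and 3 LFD libraries) and morulae, the compacted early embryo, are the groups in which diet could be compared here. The morulae came from in vitro fertilization of oocytes of unexposed females with such sperm and 72 h of culture (3 libraries with HFD fathers and 3 with LFD fathers). Liver, epididymal white adipose tissue (eWAT) and gastrocnemius muscle (6 libraries each) came from male offspring of HFD-fed fathers that were themselves kept on chow, 3 glucose tolerant and 3 glucose intolerant animals per tissue by the labels. Round spermatids (6 libraries) came from fathers on either diet, 3 libraries per diet by the labels. In the tables of round spermatids and of the 3 tissues the columns carry a number alone, so diet in the former and glucose tolerance in the latter could not be assigned to a library, and each table is described as 1 group. Animals had free access to food by the methods. Age at collection of the sons and whether food was withdrawn before it are not given in the sources used here. The methods give 3 mice per diet for round spermatids. Whether the 3 tissues came from the same animals, and whether the libraries of the tissues, sperm and morulae are separate animals or pools, is not given in the sources used here, so the p-values below measure the spread between these libraries, which may be in part technical.

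Total counts per library were 2036237 to 2552454 in liver, 1338149 to 4055537 in eWAT, 369772 to 2749920 in gastrocnemius, 20138842 to 31056066 in round spermatids, 2560219 to 4062321 in sperm and 11471251 to 12153141 in morulae. Where a library lists a gene at 0, as many as 3 counts are compatible with that reading, equal to 1.18 to 1.47 CPM (counts divided by the library total and multiplied by 1e6) in liver, 0.740 to 2.24 in eWAT and 1.09 to 8.11 in gastrocnemius. These limits, like the intervals below, cover counting error only. Defining marker genes fitted the labelled tissues: the summed level of 5 hepatocyte genes was 43739 to 66495 CPM in liver, that of 5 adipocyte genes 30168 to 43055 CPM in eWAT, and that of 5 muscle fibre genes 36052 to 77782 CPM in gastrocnemius. Several libraries stood apart. In eWAT library 17 a set of 6 spermatid genes summed to 68.9 CPM, against at most 2.29 CPM in the other eWAT libraries. A set of 5 embryo and epithelial genes that holds the keratin gene Krt18 summed to 110.5 CPM there, against 3.02 to 15.7 CPM. Across genes the log2 CPM of library 17 correlated with the others at r = 0.804 to 0.823, against 0.929 to 0.967 among the other 5. Gastrocnemius library 4, the shallowest, correlated with the others at 0.831 to 0.886, against 0.9003 to 0.957 among the other 5. Gastrocnemius library 7 held the most adipocyte RNA of its group (1192 CPM, the lowest being 225 CPM). In sperm, mitochondrially encoded genes took 78.1 to 84.3% of the counts on HFD and 43.5 to 64.7% on LFD, without overlap.

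PPARs are nuclear receptors that bind fatty acids and their derivatives and act on DNA as dimers with a retinoid X receptor (RXR). PPARα, the product of Ppara, switches on fatty acid oxidation and ketone body synthesis in the fasting liver, PPARγ (Pparg) drives fat cell formation and lipid storage, and PPARδ (Ppard) is widely expressed and promotes fatty acid use in muscle. PGC-1α, encoded by Ppargc1a, is a coactivator of these receptors and raises mitochondrial gene expression. Among the targets, Pdk4 encodes a kinase that shuts off pyruvate dehydrogenase and so spares glucose, Angptl4 a secreted inhibitor of lipoprotein lipase, Fgf21 a hormone released by the fasting liver, Ucp3 a carrier protein of the inner mitochondrial membrane of muscle, and Acot1 a cytosolic thioesterase that splits acyl-CoA.

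In the deposited tables, whose coordinates are those of build GRCm38, the receptor genes were Ppara (ENSMUSG00000022383, chr15:85734983-85802819, plus strand), Pparg (ENSMUSG00000000440, chr6:115360951-115490399, plus) and Ppard (ENSMUSG00000002250, chr17:28232700-28301474, plus). Ppargc1a (ENSMUSG00000029167) lies on chr5:51454250-51567726, minus strand. The targets were Pdk4 (ENSMUSG00000019577, chr6:5483351-5496309, minus), Angptl4 (ENSMUSG00000002289, chr17:33773750-33781830, minus), Fgf21 (ENSMUSG00000030827, chr7:45613886-45615490, minus), Ucp3 (ENSMUSG00000032942, chr7:100472990-100486432, plus) and Acot1 (ENSMUSG00000072949, chr12:84009490-84018371, plus). PPAR and RXR bind together to a direct repeat of AGGTCA with any base between the repeats. RefSeq start sites (build GRCm38.p6) were at hand for 8 of the 9 genes. The 250 bases before the start are shown for 4 of the targets, because these genes have in common that they are known PPAR targets yet had different tissue patterns below. Capitals mark a match to the repeat with at most 2 mismatches.
Ucp3, chr7:100472741-100472990, plus strand: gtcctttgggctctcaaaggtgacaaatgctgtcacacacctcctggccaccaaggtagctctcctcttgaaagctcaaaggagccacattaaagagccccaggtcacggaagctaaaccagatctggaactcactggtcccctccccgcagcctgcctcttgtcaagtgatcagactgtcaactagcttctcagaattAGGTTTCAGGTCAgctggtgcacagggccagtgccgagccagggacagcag
Pdk4, chr6:5496279-5496528, minus strand: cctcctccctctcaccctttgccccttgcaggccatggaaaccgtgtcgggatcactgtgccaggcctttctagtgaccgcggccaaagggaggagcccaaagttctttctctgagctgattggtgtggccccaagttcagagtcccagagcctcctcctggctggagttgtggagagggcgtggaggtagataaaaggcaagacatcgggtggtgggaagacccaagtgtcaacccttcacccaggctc
Acot1, chr12:84009252-84009501, plus strand: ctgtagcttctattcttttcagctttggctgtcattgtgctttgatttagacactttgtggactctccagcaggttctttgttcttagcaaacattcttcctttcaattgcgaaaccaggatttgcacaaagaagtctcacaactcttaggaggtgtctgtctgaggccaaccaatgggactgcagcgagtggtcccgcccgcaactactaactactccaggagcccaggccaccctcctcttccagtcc
Fgf21, chr7:45615491-45615740, minus strand: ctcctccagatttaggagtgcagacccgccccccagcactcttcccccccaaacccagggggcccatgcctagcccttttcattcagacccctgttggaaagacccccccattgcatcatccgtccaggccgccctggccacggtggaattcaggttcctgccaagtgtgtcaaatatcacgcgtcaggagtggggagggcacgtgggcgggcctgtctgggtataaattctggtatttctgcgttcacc
The windows of Pdk4 and Acot1 run into the first bases of the gene models in the tables, and those of Ucp3 and Fgf21 end at them. Searched on both strands, such a match stood in 1 of the 10 start-site windows of the 8 genes, that of Ucp3, 51 to 39 bases before the start on the plus strand (AGGTTTCAGGTCA, 2 mismatches). It also stood in 3.24% of 32851 RefSeq windows of the same length. The single element AGGTCA, which is part of that match, occurred in 3 of the 10 windows, those of Ucp3 and of both upstream starts of Pparg, and in 14.02% of all windows. A match is a run of letters and no measured binding, and known PPAR elements also lie outside such windows.

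The make-up of PPAR receptor transcripts differed between liver and the other 2 tissues of the offspring: Ppara led in liver, and Ppard had the highest mean of the 3 in eWAT and gastrocnemius. In liver, Ppara ranged from 256 to 473 CPM with a median of 373 (365 ± 85.8, SD, n = 6). In eWAT it was at 5.23 to 17.5 CPM with a median of 13.4 (12.7 ± 4.71, SD, n = 6), and in gastrocnemius at 1.35 to 40.6 CPM with a median of 9.02 (13.8 ± 14.02, SD, n = 6). Every liver library was thus far above every library of the other tissues, while eWAT and gastrocnemius overlapped, and the highest gastrocnemius value was that of library 4 with 15 counts. Ppard was lowest in liver, at 3.92 to 10.3 CPM with a median of 5.41 (6.17 ± 2.27, SD, n = 6). It was at 8.57 to 22.5 CPM with a median of 16.02 in gastrocnemius (15.8 ± 6.36, SD, n = 6) and at 28.4 to 56.8 CPM with a median of 33.8 in eWAT (38.4 ± 11.3, SD, n = 6). By these library totals eWAT stood above both other tissues without overlap, whereas gastrocnemius and liver overlapped.

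Pparg was highest in eWAT, where it ranged from 10.5 to 38.0 CPM with a median of 22.02 (22.5 ± 9.81, SD, n = 6), and no library of another tissue reached that range. Liver held 11 Pparg counts over all 6 libraries (0 to 1.70 CPM, median 0.684) and gastrocnemius 10 (0 to 6.41 CPM, median 0.407), of which 6 were in library 7. The summed adipocyte markers were also highest in library 7 among the gastrocnemius libraries, and their part in the Pparg counts was not tested. The mean Pparg level in gastrocnemius was 6.18% of that in eWAT, against 0.399% for the adipocyte hormone gene Adipoq and 0.808% for the lipid droplet gene Plin1. Other adipocyte markers lay closer to Pparg. In the edgeR fit given below, the 5 markers were higher in eWAT than in gastrocnemius by log2 fold changes of 4.01 (Fabp4) to 7.19 (Adipoq). Pparg was higher by 3.402, and its gastrocnemius level rests on the 10 counts above.

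Taken as shares of the counts of the 3 receptor genes in a library, Ppara made up 97.5 to 98.9% in liver. In eWAT Ppard took 33.8 to 78.4%, Pparg 14.4 to 45.3% and Ppara 7.22 to 22.5%. In gastrocnemius Ppard took 34.4 to 82.6% and Ppara 13.04 to 65.2%, while Pparg took 0 to 18.7%. The tissue libraries were made with a kit that reads the 3′ end of each transcript, so these shares are taken over tags and not corrected for transcript length. Liver was the tissue in which 1 receptor gene held nearly all counts, and eWAT and gastrocnemius libraries spread widely. Round spermatid, sperm and morula libraries were made with another kit and are on another scale.

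**Figure D1:**
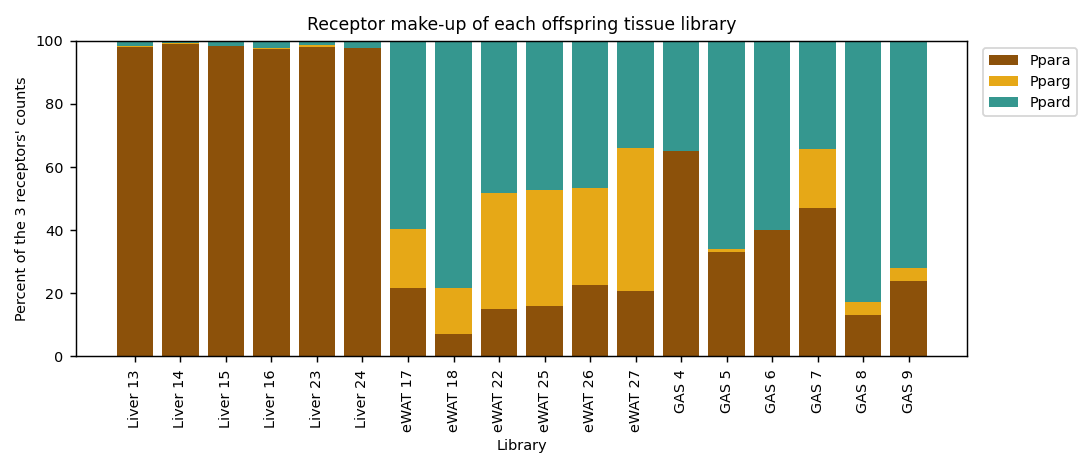
Share of the counts of the 3 PPAR receptor genes that fell on Ppara, Pparg and Ppard, in percent (vertical axis), as 1 stacked bar for each liver, eWAT and gastrocnemius (GAS) library. Ppara fills 97.5 to 98.9% of every liver bar, while the bars of eWAT hold all 3 genes and those of gastrocnemius mostly Ppara and Ppard.

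The coactivator gene Ppargc1a was measured in all 3 tissues. It ranged from 19.2 to 54.5 CPM in gastrocnemius with a median of 35.4 (38.0 ± 14.1, SD, n = 6), from 13.8 to 24.04 CPM in liver with a median of 19.7 (19.4 ± 3.91, SD, n = 6), and from 3.45 to 21.4 CPM in eWAT with a median of 7.47 (10.1 ± 6.90, SD, n = 6). The order of the means was muscle, liver, eWAT, and each neighbouring pair overlapped in range.

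Among the targets, Pdk4 and Ucp3 were muscle transcripts in these data. Pdk4 ranged from 191.5 to 283 CPM in gastrocnemius with a median of 220.4 (225 ± 33.2, SD, n = 6) and from 6.88 to 37.2 CPM in eWAT with a median of 15.01 (18.4 ± 12.04, SD, n = 6). In liver it was close to the counting limit, with 1 to 5 counts per library (0.426 to 2.19 CPM). The 3 tissues did not overlap. Ucp3 ranged from 67.0 to 112 CPM in gastrocnemius with a median of 87.9 (88.0 ± 18.6, SD, n = 6) and from 4.84 to 11.5 CPM in eWAT with a median of 7.87 (7.74 ± 2.48, SD, n = 6). Liver held a single Ucp3 count, in library 24. The Ucp3 counts summed over the 6 gastrocnemius libraries, divided by their summed totals, were 1248 times the same quotient for liver, with an exact 95% counting interval of 223 to 49344. The eWAT means of Ucp3 and Pdk4 were 8.80% and 8.19% of those in gastrocnemius, against 0.434% for muscle creatine kinase (Ckm) and 1.22% for skeletal actin (Acta1).

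Angptl4 was an eWAT transcript and Acot1 a liver transcript. Angptl4 ranged from 207 to 327 CPM in eWAT with a median of 289 (279 ± 44.4, SD, n = 6), from 47.3 to 82.3 CPM in liver with a median of 55.5 (58.5 ± 13.02, SD, n = 6), and from 6.66 to 29.9 CPM in gastrocnemius with a median of 13.5 (15.6 ± 8.05, SD, n = 6). No 2 of these ranges overlapped. Acot1 ranged from 138 to 243 CPM in liver with a median of 164 (173 ± 41.2, SD, n = 6). In gastrocnemius it was at 1.69 to 32.1 CPM with a median of 8.62, and in eWAT at 1.51 to 7.45 CPM in 5 libraries and at 54.7 CPM in library 17. The mean in eWAT was 11.7 ± 21.1 CPM (SD, n = 6) and 3.16 ± 2.46 CPM (SD, n = 5) without that library, the one in which spermatid genes were found. The part of RNA from other cells in that value was not tested.

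Fgf21 was a low liver transcript. Its counts in the 6 liver libraries were 2 to 20 (0.981 to 8.52 CPM, median 4.32). In eWAT they were 0 to 6, and gastrocnemius had 0 in all 6 libraries. Liver was at least 14.6-fold higher than the limit that 3 counts over the whole gastrocnemius group set (0.305 CPM). In bulk tissue such as this, fewer cells of a type and less RNA per cell cannot be told apart, for any of these genes.

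**Figure D2:**
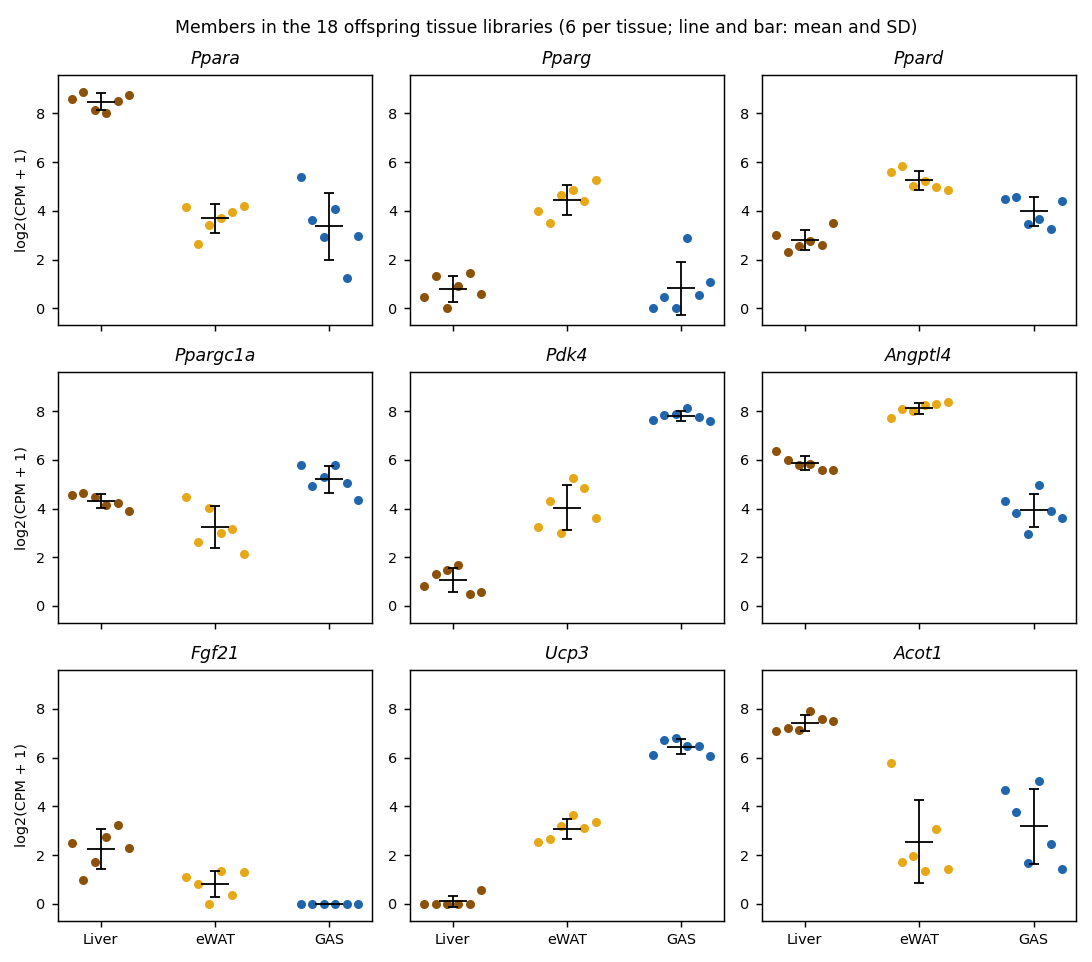
Level of each of the 9 genes in liver, eWAT and gastrocnemius, 1 panel per gene, as log2(CPM + 1) on the vertical axis, with 1 point per library and the mean and SD of the 6 libraries. Ppara and Acot1 are highest in liver, Pparg and Angptl4 in eWAT, Pdk4, Ucp3 and Ppargc1a in gastrocnemius, and the single high Acot1 point of eWAT is library 17.

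The difference between tissues was tested with edgeR over all 18 tissue libraries and 10851 genes, with counts scaled by TMM, a method that sets library sizes so that most genes do not differ. That scaling matters here: with library totals in its place the median log2 fold change of all genes moved from -0.07 to -0.996 for liver over eWAT and from 0.35 to 1.32 for eWAT over gastrocnemius, and the calls split into 1406 higher and 6995 lower in the former (3138 and 3544 with TMM) and 7357 higher and 1227 lower in the latter (4464 and 2854 with TMM). Fgf21 did not pass the filter on low counts, so 8 of the 9 genes were tested. Much of the transcriptome differed between these organs. At an edgeR adjusted p under 0.05, 28.9% of the genes tested were higher in liver and 32.7% higher in eWAT. For liver and gastrocnemius the shares were 34.9% and 31.5%, and for eWAT and gastrocnemius 41.1% and 26.3%.

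Against eWAT, 3 of the 8 were higher in liver and 5 lower, so each of the 8 differed. Ppara was higher by a log2 fold change of 5.71 (SE 0.40, edgeR adjusted p = 1.81e-11) and Acot1 by 4.77 (SE 0.67, edgeR adjusted p = 1.42e-06), or by 6.53 (SE 0.49) without eWAT library 17. The coactivator Ppargc1a was higher by 1.897 (SE 0.32, edgeR adjusted p = 1.72e-05). The 5 genes higher in eWAT were Angptl4, Ppard, Pdk4, Pparg and Ucp3, with log2 fold changes of liver over eWAT from -1.34 (Angptl4, SE 0.22) to -5.21 (Ucp3, SE 0.59, resting on 1 liver count). The median size of change over all genes tested was 0.86 on the log2 scale, and each of the 8 changed by more than that.

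Against gastrocnemius, 3 of the 8 were higher in liver and 4 lower. The 3 were Ppara (log2 fold change 5.13, SE 0.42, edgeR adjusted p = 2.13e-10), Acot1 (4.02, SE 0.71, and 4.81 without gastrocnemius libraries 4 and 7) and Angptl4 (1.98, SE 0.26). The 4 genes higher in muscle were Ucp3 (-9.64, SE 0.43), Pdk4 (-7.55, SE 0.44, edgeR adjusted p = 4.82e-13), Ppard (-1.37, SE 0.31) and Ppargc1a (-0.92, SE 0.31, edgeR adjusted p = 0.0110). The call of Ppargc1a was lost without gastrocnemius libraries 4 and 7 (-0.69, edgeR adjusted p = 0.0696). Pparg, with 11 and 10 counts in the pair of tissues, gave -0.43 (SE 0.86, edgeR adjusted p = 0.677).

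Between eWAT and gastrocnemius, 2 of the 8 were higher in eWAT, 3 were lower, and 3 did not pass. Pparg was higher in eWAT by 3.402 (SE 0.59, edgeR adjusted p = 2.82e-05), or by 4.52 without gastrocnemius libraries 4 and 7, and Angptl4 by 3.32 (SE 0.26, edgeR adjusted p = 1.27e-10). Pdk4 (-4.52, SE 0.33), Ucp3 (-4.43, SE 0.24) and Ppargc1a (-2.82, SE 0.32) were higher in muscle. The 3 without a call each depended on the scaling or on the libraries used. Ppard gave 0.31 (SE 0.27, edgeR adjusted p = 0.307), but 1.30 with library totals (edgeR adjusted p = 1.44e-04). Ppara gave -0.58 (SE 0.43, edgeR adjusted p = 0.232), and 0.38 with library totals. Acot1 gave -0.75 (SE 0.74, edgeR adjusted p = 0.377), 0.28 with library totals, 0.057 without gastrocnemius libraries 4 and 7, and -2.49 without eWAT library 17, when it passed (edgeR adjusted p = 3.01e-04).

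**Figure D3:**
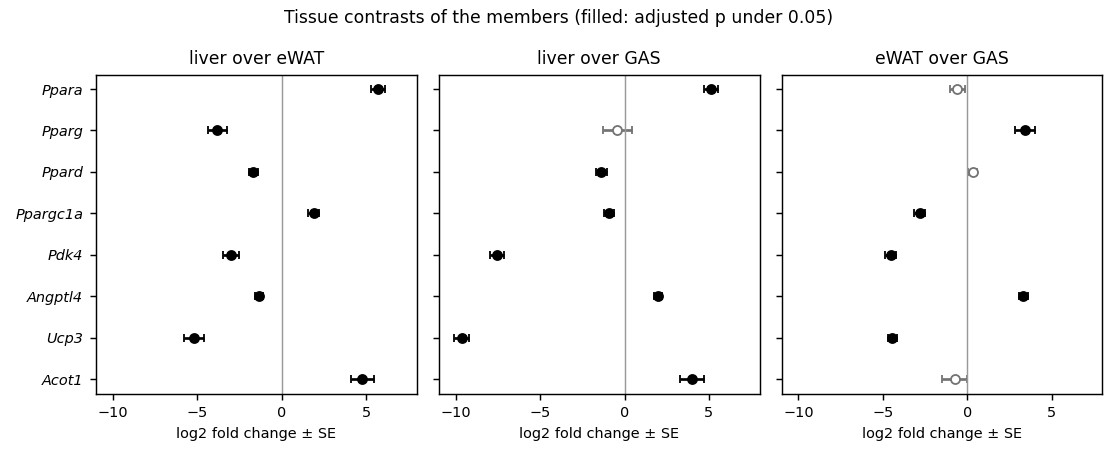
Log2 fold change (horizontal axis) with its standard error for the 8 tested genes in the 3 comparisons of tissues, from the edgeR fit with TMM scaling, where GAS is gastrocnemius and filled points have an adjusted p under 0.05. Ppara and Acot1 lie to the right in both liver comparisons, Pdk4 and Ucp3 to the left in all 3, and Pparg to the right for eWAT over gastrocnemius.

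Acot1 has a close paralog, Acot2, whose product acts in mitochondria. Of all 50-base stretches of the Acot1 transcript 33.7% also occurred in another gene (23.7% in Acot2), but none in its last 500 bases, where 3′ tags fall. In sperm, spermatids and morulae, whose libraries cover whole transcripts, the authors' counting could split reads between the pair, and Acot1 values there are uncertain to that extent. Acot1 was the main gene of the pair in liver, with 52.7 to 78.5% of their summed counts (median 65.9%). It was the minor one in eWAT (2.02 to 23.6%, median 4.08%) and in gastrocnemius (1.2 to 14.1%, median 4.37%).

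Other genes of the pathway were followed in lists. One list held 19 genes known as PPARα targets, with genes of fatty acid oxidation and ketone synthesis among them. All 19 were higher in liver than in eWAT, with a median log2 fold change of 3.41 against -0.07 over all genes. The largest were Fabp1, a fatty acid binding protein (9.35), Cyp4a14, a fatty acid hydroxylase (8.96), and Creb3l3, a transcription factor of the fasting liver (8.39). Against gastrocnemius 17 were higher in liver and 2 did not pass (median 6.00). Between eWAT and gastrocnemius the list split, with 11 higher in eWAT and 8 higher in muscle (median 2.12). Fabp1 is also one of the hepatocyte markers, whose sum reached 38.9 to 627 CPM in eWAT and 0.728 to 3.16 CPM in gastrocnemius, and the part of hepatocyte RNA in these eWAT values was not tested. The mean Ppara level of eWAT was 3.48% of that of liver, against 0.440% for albumin (Alb).

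Among 10 genes known as PPARγ targets in fat cells, 8 were higher in eWAT than in liver and 1 lower (median liver over eWAT -6.70). They included Adipoq (-10.77) and the fatty acid binding protein gene Fabp4 (-9.23), which are adipocyte markers as well, and the lipid droplet coat gene Plin1, which had 1 count in all liver libraries together. The single gene that was higher in liver was Pck1, which encodes an enzyme of gluconeogenesis (1.28), and Cebpa did not pass. All 10 were higher in eWAT than in gastrocnemius, with a median of 4.54 against 0.35 over all genes, and Cidec, a lipid droplet protein, had the largest difference (7.92). Of liver and gastrocnemius, 3 of the 10 were higher in liver and 6 in gastrocnemius (median -3.08).

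The 15 receptor partners and cofactors went both ways. Of them, 2 were higher in liver than in eWAT and 6 lower (median -0.43), 3 were higher in liver than in gastrocnemius and 7 lower (median -0.56), and 3 were higher in eWAT than in gastrocnemius and 4 lower (median -0.24). Rxra, the RXR gene of liver, was higher there than in eWAT by 1.78 and than in gastrocnemius by 1.53. Rxrg, the RXR gene of muscle, was higher in gastrocnemius than in liver (-3.81) and eWAT (-3.24). The second coactivator gene of the PGC-1 family, Ppargc1b, was higher in liver than in eWAT by 1.53. It was also higher in liver than in gastrocnemius, by 1.70.

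Genes of fasting signalling, upstream or downstream of the members, were mixed. Of 8, 2 were higher in liver than in eWAT and 3 lower (median -0.24), 2 were higher in liver than in gastrocnemius and 4 lower (median -0.70), and 1 was higher in eWAT than in gastrocnemius and 4 lower (median -0.53). Klf15, a transcription factor induced by glucocorticoids, was higher in liver than in eWAT by 2.66, and Fgfr1, a receptor of Fgf21, was lower in liver than in eWAT by a log2 fold change of -3.27. Of 6 genes of the fed state, 3 passed the filter. Fasn and Thrsp, genes of fatty acid synthesis, were lower in liver than in eWAT (-2.19 and -3.45), and Acly did not pass. All 3 were higher in eWAT than in gastrocnemius, and 2 of the 3 higher in liver than in gastrocnemius. Srebf1, a regulator of lipid synthesis, stood at 0 to 2.74 CPM in liver. The PPARα target Cyp4a10, a fatty acid hydroxylase gene, stood at 8008 to 20698 CPM in the same libraries. The fasting targets Pdk4 and Fgf21 were low there, at 0.426 to 2.19 CPM and 0.981 to 8.52 CPM. Feeding state at collection is not known. Of 14 paralogs of the targets, 10 were tested, of which 7 were higher in liver than in eWAT and 3 lower (median 1.34), 5 higher in liver than in gastrocnemius and 3 lower (median 1.54), and 7 higher in eWAT than in gastrocnemius and 2 lower (median 2.71, or 1.67 with the genes at 0 in gastrocnemius set to their bound). Ucp2, a paralog of Ucp3, was higher in eWAT than in liver (-3.94).

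How far the 6 libraries of a tissue differed from each other was measured as the SD of log2 CPM (TMM-scaled), set against all genes that passed the filter in that tissue. In liver 4 of the 9 genes passed and all 4 lay near the typical gene: Ppara had an SD of 0.39, Angptl4 0.32, Acot1 0.31 and Ppargc1a 0.31, against a median of 0.32 over all genes. In eWAT 7 passed, and Pdk4 (0.96) and Ppargc1a (0.85) varied more than 98.2% and 97.0% of the genes there. The highest Ppargc1a value in eWAT was that of library 17, without which its mean was 7.82 ± 4.61 CPM (SD, n = 5). Those of Pdk4 (37.2 CPM) and Ucp3 (11.5 CPM) were in library 25, which also had the highest summed muscle markers (1133 CPM, against 39.9 to 349.6 CPM in the other 5), and the part of muscle RNA in them was not tested. Pparg also lay above the 90th percentile of 0.63 in eWAT, with 0.66, while Angptl4 (0.30) lay below the median of 0.35. The coefficient of variation of Pdk4 in eWAT was 65.3%, where counting error alone gives 14.3%. In gastrocnemius 5 passed, and Pdk4 was the steadiest of them: its SD was 0.16, and 6.22% of the genes there had a smaller one. Ucp3 stood at 0.26 and Ppargc1a at 0.56, while Ppard (0.64) and Angptl4 (0.69) lay above the 90th percentile of 0.57. Pdk4 was thus among the more variable genes in eWAT and among the less variable in gastrocnemius, and these shares are not matched for level. Glucose tolerance differed between the animals by the labels and could not be set against these values.

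**Figure D4:**
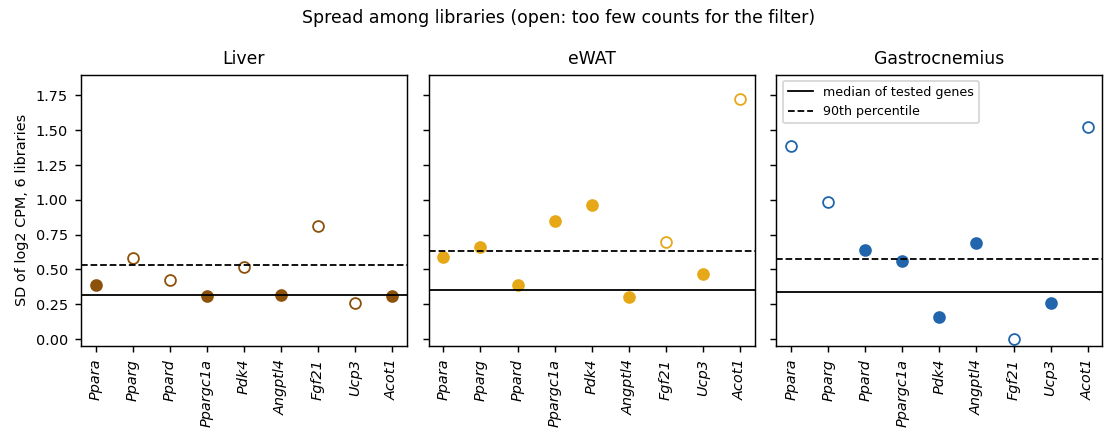
SD of log2 CPM over the 6 libraries (vertical axis) for each of the 9 genes in liver, eWAT and gastrocnemius, with open symbols for genes that did not pass the filter on low counts of that tissue and lines for the median and the 90th percentile of all genes that passed. Pdk4 lies at 0.96 in eWAT and at 0.16 in gastrocnemius.

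Whether targets rose and fell together among libraries was computed for the 18 pairs of targets with a mean of at least 1 CPM in a tissue, 6 pairs in each. None passed after adjustment over the 18 (exact permutation tests over 720 pairings), and 1 had an unadjusted p under 0.05, Angptl4 with Acot1 in gastrocnemius (Pearson's r = 0.87, exact permutation p = 0.0139, adjusted p = 0.25, Spearman's rho = 0.89, exact permutation p = 0.0333). Its r was 0.87 without the 2 libraries farthest from the median of Angptl4. The same pair had the most negative r in eWAT (-0.81, exact permutation p = 0.0569), which became -0.09 without library 17. Over all pairs 10 coefficients were positive and 8 negative, so these targets did not show a shared rise and fall that 6 libraries could resolve.

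The genes whose variation was most like that of a member were ranked by Pearson's r of log2 CPM over the 18 libraries after subtracting each tissue's mean, among up to 5818 genes with at least 5 CPM on average in each tissue. The libraries share depth and composition effects, and no p is attached. Ppara was followed most closely by Tpm3 (r = 0.83), Ppp2r5c (0.83) and Atp2a2 (0.83), values that fell to 0.69, 0.69 and 0.66 without eWAT library 17 and gastrocnemius library 4. Within gastrocnemius these were 0.97, 0.96 and 0.96, but within liver all 3 were negative (-0.50, -0.22 and -0.22), and in eWAT they were 0.28, 0.81 and -0.12. For Ppard they were Zfp768 (0.81), Gt(ROSA)26Sor (0.80) and Cul4b (0.80), and for Ppargc1a Khdrbs3 (0.83) and Nfib (0.79). Pdk4 was most like Etf1 (0.84), Optn (0.83) and Cisd1 (0.77), Angptl4 most like Gbe1 (0.87), Tjp1 (0.86) and Tmem106b (0.84), and Acot1 most like Atp1b1 (0.89) and Nfat5 (0.84). Within liver the r of Acot1 with Atp1b1 was -0.89 and with Nfat5 -0.030, and that of Pdk4 with Cisd1 was -0.20 in gastrocnemius. Without eWAT library 17 and gastrocnemius library 4, the r of Ppargc1a fell to 0.73 with Khdrbs3 and 0.64 with Nfib. That of Acot1 fell to 0.72 with both Atp1b1 and Nfat5. The values of Ppard, Pdk4 and Angptl4 were then 0.73 to 0.87. Within liver the r of Ppargc1a with Khdrbs3 was 0.14. Pparg, Fgf21 and Ucp3 were below 1 CPM in a tissue and were not ranked.

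In round spermatids all 9 genes had counts, at low levels. The means were 4.07 ± 0.680 CPM for Ppargc1a, 2.06 ± 0.510 for Pparg, 1.85 ± 0.293 for Ppara, 1.80 ± 0.428 for Fgf21 and 1.37 ± 0.281 for Ppard (SD, n = 6). They were 0.938 ± 0.0746 CPM for Angptl4, 0.920 ± 0.246 for Ucp3, 0.371 ± 0.117 for Pdk4 and 0.115 ± 0.0585 for Acot1. These libraries cover whole transcripts, so levels of genes can be compared per length. Per kilobase Fgf21 came first, at 1.897 CPM per kb, then Pparg at 0.699, Ppargc1a at 0.617 and Ppara at 0.482. Of the counts of the 3 receptor genes, not corrected for length, Pparg took 32.7 to 46.2%, Ppara 24.6 to 41.2% and Ppard 22.1 to 29.2%. Per kilobase Pparg took 40.4 to 55.1%, Ppara 22.6 to 39.1% and Ppard 16.8 to 22.5%. Libraries of both paternal diets are among the 6 and could not be told apart.

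In sperm, 7 of the 9 genes had a count and 3 passed the filter on low counts: Ppard, Acot1 and Ppargc1a. None of the 3 passed the test between the diets. Over all 8643 genes tested edgeR called 0 (0%), with 1124 at an unadjusted p under 0.05. DESeq2, run without that filter on low counts, called 221 of 26893 genes. Ppard had 26, 52 and 22 counts in the HFD libraries h1000, h3000 and h4000, and 228, 95 and 170 in the LFD libraries l1000, l2000 and l4000. Scaled by TMM these were 17.02, 18.2 and 13.7 CPM on HFD against 52.2, 20.3 and 26.1 CPM on LFD. All HFD libraries lay below all LFD libraries, l2000 only narrowly above h3000, and such a separation occurred in 20.4% of all genes tested. By library totals, 4 epididymal marker genes also separated the diets, with sums of 1628 to 2879 CPM on HFD and 3014 to 24980 CPM on LFD. The 5 genes that include Krt18 summed to 4.35 to 24.6 CPM on HFD and 59.99 to 120.3 CPM on LFD. Scaled by TMM, the diets overlapped for the epididymal gene Crisp1, at 3632 to 3758 CPM on HFD and 1651 to 9221 CPM on LFD. They also overlapped for Krt18, at 9.96 to 39.9 CPM on HFD and 35.2 to 44.2 CPM on LFD. Other marker lists went the opposite way. The 5 spermatid, 3 leukocyte and 3 erythroid genes tested were all higher on HFD, with median log2 fold changes of 1.22, 1.22 and 1.82. None of these was called, and 2, 1 and 2 of them had an unadjusted edgeR p under 0.05. The part of these cell types, and of the mitochondrial share, in the values of Ppard and Acot1 was not tested. The log2 fold change of Ppard was -1.005 (SE 0.54, edgeR adjusted p = 0.463).

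Acot1 in sperm had 10, 7 and 1 counts on HFD and 43, 34 and 42 on LFD, in the same order of libraries. TMM-scaled levels were 6.55, 2.45 and 0.623 CPM against 9.85, 7.25 and 6.44 CPM, so the lowest LFD library lay below the highest HFD library. The log2 fold change was -1.30 (SE 0.90, edgeR adjusted p = 0.590), and -2.25 without h1000 (edgeR adjusted p = 0.343). Ppargc1a had 0, 46 and 1 counts on HFD and 24, 11 and 20 on LFD, with a log2 fold change of 0.68 (SE 1.18, edgeR adjusted p = 0.857). Its HFD value rests on h3000, without which it was -3.41, and h3000 was also the library with the highest summed muscle (10.6 CPM) and adipocyte (10.1 CPM) marker levels, whose part was not tested. Sperm levels depended on the scaling. TMM factors were 0.440 to 0.7099 on HFD and 1.52 to 2.62 on LFD. With library totals the median of all genes was -1.82 in place of -0.07, Ppard gave -2.67 (edgeR adjusted p = 0.0136) and Acot1 -2.98 (edgeR adjusted p = 0.0284), and Ppargc1a turned to -0.73.

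The other genes were at or near 0 in sperm. Ppara had 0, 2 and 0 counts on HFD and 4, 5 and 2 on LFD. Pparg had 1, 0 and 19 on HFD against 0, 1 and 0 on LFD, so nearly all of its counts were in h4000. Pdk4 had 13 of its 14 counts in l1000, Angptl4 had 2 counts in all, and Fgf21 and Ucp3 had none, which allows up to 0.156 CPM over the 6 libraries together. Of the listed genes, 12 partners, 6 PPARα targets and 1 PPARγ target were tested in sperm. So were 5 genes of fasting signalling, 7 paralogs and 3 genes of the fed state. None of these was called by edgeR, with 3, 1, 1, 0, 2 and 0, in this order, at an unadjusted p under 0.05.

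In morulae the set was reduced to Ppard, Acot1 and Angptl4, which all passed the filter. Ppard had 258, 317 and 215 counts with HFD fathers (MH5, MH6 and MH7) and 239, 245 and 275 with LFD fathers (ML1, ML2 and ML3). The diets overlapped, and the log2 fold change was 0.04 (SE 0.19, edgeR adjusted p = 0.988). Acot1 had 345, 257 and 338 counts against 266, 253 and 330, again overlapping, with a log2 fold change of 0.12 (SE 0.18, edgeR adjusted p = 0.942). It took 74.3 to 82.4% of the summed counts of Acot1 and Acot2. Angptl4 had 52, 47 and 52 counts against 78, 43 and 50, with a log2 fold change of -0.19 (SE 0.35, edgeR adjusted p = 0.959). Over all 13447 genes tested edgeR called 0 (0%), with 858 at an unadjusted p under 0.05. The diets did not overlap for 12.1% of the 13447, none of the 3 genes among them. DESeq2, run without the filter on low counts, called 8 of 29782 genes. The description field of 3 morula samples gives the opposite diet to their title, and the grouping used here follows the letters of the table and the sample titles.

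Of the other members, Ppara had 9 counts in MH7 and none elsewhere, and Pparg 1 count in MH7. Ppargc1a, Pdk4, Fgf21 and Ucp3 were at 0 in all 6 morula libraries, which allows up to 0.0423 CPM over the group. Ppard was thus nearly the sole PPAR receptor transcript of the morula, with 95.6 to 100% of the receptor counts. In sperm its share was 53.7 to 98.8%. These shares are not corrected for transcript length. Per kilobase Ppard took 91.4 to 100% in morulae and 31.3 to 97.7% in sperm, where Pparg led in h4000 with 68.7%. Of the listed genes, 14 partners, 14 PPARα targets and 3 PPARγ targets were tested in morulae. So were 7 genes of fasting signalling, 5 paralogs and 5 genes of the fed state. None of these was called by edgeR, with 1, 0, 1, 0, 0 and 0, in this order, at an unadjusted p under 0.05.

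**Figure D5:**
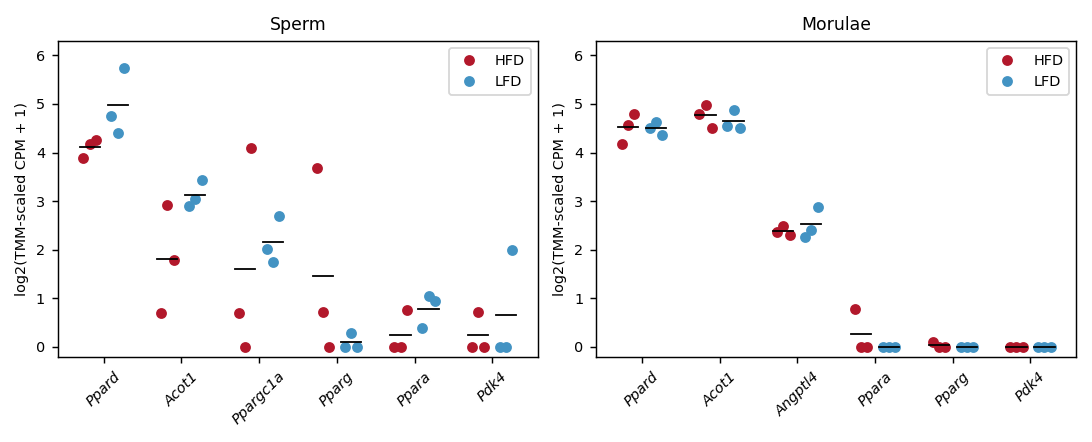
Level of 6 of the genes in sperm and in morulae as log2(TMM-scaled CPM + 1) on the vertical axis, 1 point per library by the diet of the father, with 3 HFD and 3 LFD libraries in each and a line at the mean. The HFD points of Ppard lie below the LFD points in sperm, and in morulae the diets overlap for Ppard, Acot1 and Angptl4.

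Ppard and Acot1 were tested in both sperm and morulae, so the effect of diet was also taken as a difference between them. The diets were permuted within sperm and within morulae. The p thus refers to no effect of diet in either, and cannot by itself test for an equal effect in both. Mean log2 CPM on HFD less that on LFD was -0.88 in sperm and 0.02 in morulae for Ppard, a difference of -0.90 (two-sided exact permutation test over 400 arrangements, p = 0.095, adjusted over the 2 genes 0.095). For Acot1 it was -1.50 and 0.12, a difference of -1.62 (p = 0.075, exact permutation test, adjusted 0.095). Neither passed, and for both genes the difference was past the threshold with library totals (-2.60 and -2.98, exact permutation tests, adjusted p = 0.045 and 0.03). With library totals the median log2 fold change of all genes tested was itself -1.82 in sperm, against 0.03 in morulae. The difference of Ppard was also past the threshold without the morula library MH7 (-1.07, exact permutation test, adjusted p = 0.03).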

How the data were processed

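The deposited files are 6 tables of raw counts per gene, which the authors made by trimming reads with BBDuk, mapping them to GRCm38 with STAR and counting with featureCounts, and which were used as deposited. The strand setting is not given in the sources used here. The authors' methods name NOISeq for their test. The tissue libraries were made with a QuantSeq 3′ kit (50-bp single reads) and the others with Nextera (75-bp reads), so levels are compared within a kit. Diet was taken from the letters of the column names in sperm and morulae. In 24 columns the name gives a number alone and the tissue was taken from the table it stands in; 0 columns of per-sample values were left out. The round spermatid table lists gene models with other coordinates and lengths than the sperm table. No pair of libraries differed by as little as sampling noise (chi-square per degree of freedom at least 3.50).

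Levels are counts divided by the library total times 1e6 (CPM). Tests used edgeR 4.0.16 in R 4.3.3 (filterByExpr with a minimum count of 10, TMM, quasi-likelihood F-test, with p-values adjusted by Benjamini-Hochberg over all genes tested and a threshold of 0.05), fitted for sperm, for morulae and for the 18 tissue libraries, with no block. Log2 CPM for spread, pairs and likeness used TMM and a prior count of 2. Pairs and the difference between sperm and morulae used exact permutation tests that list all arrangements, with ranks for Spearman's rho from scipy 1.17.1. The alternatives were DESeq2 1.42.0, its size factors, library totals, TMM on nuclear genes, fits of only the tissue pair compared, no filter, a prior count of 0.5, a replicate block in sperm, and leaving out each library of sperm and of morulae. No liver library was left out of the tissue fits. Leaving out the tissue libraries that stand apart, and leaving out libraries in the sperm and morula difference, were added after seeing the data. The fits were tested on simulated data. Figures were drawn with matplotlib 3.10.9. All 9 genes are named throughout, other lists by counts with at most 3 genes of the largest change or highest level, and likeness by the top 3 genes, of which some are not reported here; Ppargc1b, Cebpa, Pck1, Acly, Ucp2 and Srebf1 were added after their values were seen. Members and gene lists were chosen with earlier results of these data known.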

Additional observations from a re-analysis of the deposited data

Results flagged for a closer look

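The highest or lowest library in a set of 6 was set against the others by Dixon's test at the 95% level. There were 35 sets, 1 for each gene with a count in liver, eWAT, gastrocnemius or round spermatids. Chance alone passes the test in about 1 of 20 sets of normally distributed values. Levels that rest on few counts need not follow that rate. Sperm and morulae, with 3 libraries per diet, were not tested. In 4 sets a library stood apart. Acot1 was at 54.7 CPM in eWAT library 17, against 1.51 to 7.45 CPM in the other 5. Ppara was at 40.6 CPM (15 counts) in gastrocnemius library 4, against 1.35 to 16.03 CPM. Pparg was at 6.41 CPM (6 counts) in gastrocnemius library 7, against 0 to 1.13 CPM. Ucp3 was at 0.491 CPM (1 count) in liver library 24, against 0 in the other 5. The last 3 rest on few counts. A set with a single count, like that of Ucp3, passes whichever library holds it, so its outcome was fixed. No cause was tested for any of the 4.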

How the results depend on the processing

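The tissue results changed little: of 166 values for 24 gene comparisons under the alternatives, 159 kept their direction and their side of the threshold, 1 lost its call (Ppargc1a, liver over gastrocnemius, as given above), 2 gained one (Ppard with library totals and Acot1 without eWAT library 17, both eWAT over gastrocnemius) and 4 turned direction. None of the 4 turned values was called: Pparg in liver over gastrocnemius was 0.67 without gastrocnemius libraries 4 and 7, Acot1 in eWAT over gastrocnemius was 0.28 with library totals and 0.057 without those 2 libraries, and Ppara in eWAT over gastrocnemius was 0.38 with library totals.

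In sperm, library totals called 2 of the 3 tested members (Ppard and Acot1) and 3266 genes in all, no filter on low counts called 41 genes, DESeq2 221, and the other settings run 0, except the replicate block. Ppargc1a turned direction with library totals (-0.73) and with the replicate block (-3.58), and ranged from -3.41 (without h3000) to 1.23 when 1 library was left out. The sperm columns share the numbers 1000 and 4000 between the diets, but nothing says that these mark shared animals, and deviations of same-numbered libraries correlated across genes at r = 0.11 and -0.14. With that replicate block edgeR called 2 genes, no member among them. In morulae no filter called 63 genes and DESeq2 8, and leaving out 1 library called 0 to 2 (2 without MH5), again no member. Over these, Ppard ranged from -0.12 (without MH6) to 0.19, turning also without ML1 (-0.03), and Angptl4 from -0.34 to 0.057 (without ML1). No paired analysis was possible in morulae because the diets share no number. For the difference between sperm and morulae library totals called 2 genes and leaving out 1 library 0 to 1 (Ppard without MH7, -1.07, exact permutation test, adjusted p = 0.03). The cause of these changes was not tested. Depth limits Fgf21 in the 3 tissues, Pparg outside eWAT, and Pdk4 and Ucp3 in liver.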
